A study of Mus musculus with 12 samples.

Results

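Genes of cation channels that open to membrane stretch, or that belong to the transient receptor potential (TRP) superfamily, were followed in the hearts of mice 9 h after pressure overload. The 7 genes, Piezo1, Pkd1, Pkd2, Trpc1, Trpv2, Trpm7 and Trpm4, were taken by name from a table of 13552 genes, and all 7 were among the 11240 genes tested. Transverse aortic constriction (TAC) narrows the aorta and raises the load on the left ventricle, whereas sham surgery leaves the aorta open. There were 4 groups of 3 C57BL/6 mice each, all taken 9 h after surgery, with sham or TAC in wild type (WT) mice and sham or TAC in Bcl-xL S14A knock-in (KI) mice. The KI allele puts alanine in place of serine 14 of Bcl-xL, a protein of the Bcl-2 family encoded by Bcl2l1, in the whole animal, so all cell types of the heart carry it. The methods of the study describe young adult males, homozygous KI mice that were made in embryonic stem cells, passed through a CMV-Cre line to remove the selection cassette and backcrossed to C57BL/6J, and WT mice from a commercial supplier, so genotype and origin of the mice cannot be told apart. Values are in RPKM (read counts divided by exon length and by library size).

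Piezo1 is a large channel that opens when the membrane is stretched and lets in cations, calcium among them. Polycystin-1, the product of Pkd1, is a large membrane protein that assembles with polycystin-2, a TRP family channel encoded by Pkd2. Trpc1 and Trpv2 encode calcium-permeable channels that have been studied in stretched muscle, Trpm7 encodes a channel for magnesium and calcium fused to a protein kinase, and Trpm4 encodes a channel that opens when intracellular calcium rises and passes sodium and potassium but hardly any calcium.

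Trpm4 was lower after TAC. KI hearts had a mean of 6.58 ± 0.355 RPKM with sham surgery against 3.33 ± 1.12 RPKM with TAC (SD, n = 3), and the difference passed the test, except after a correction for GC content and exon length (adjusted p = 0.0594 from limma). The WT difference had the same direction and missed the threshold, from 6.77 ± 1.88 to 4.1 ± 0.542 RPKM (SD, n = 3 each). Pkd1 had a lower mean in KI TAC hearts than WT TAC hearts (14.9 ± 3.24 against 23.3 ± 1.68 RPKM, SD, n = 3 each), with no overlap between the mice (as for 29.5% of all genes tested) but an adjusted p of 0.0556 from limma, and of 0.21 after that correction. Piezo1, Pkd2 and Trpc1 were higher in each WT TAC heart than in any WT sham heart, and none of these 3 differences passed the test. Groups without overlap, in either direction, were found for 35.1% of all genes in that comparison, and Piezo1 and Pkd2 overlapped once the medians of the libraries were set equal. No channel gene passed the test between the sham groups, between the TAC groups, or for a response that differed between genotypes. Of all genes tested, 0.0178%, 11% and 0% passed these tests, so this does not set the channel genes apart.

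**Figure D1:**
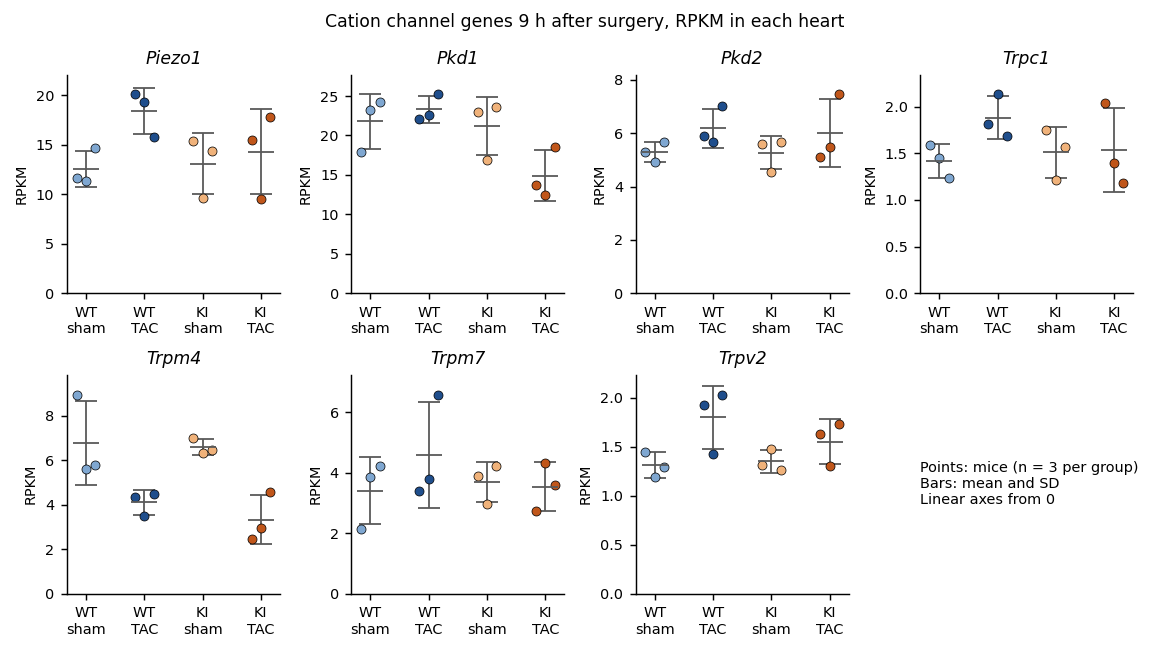
RPKM (linear axes from 0) of the 7 channel genes in each heart, with points for mice and bars for the group mean and SD (n = 3). The 6 TAC hearts lie between 2.46 and 4.59 RPKM for Trpm4, below the 6 sham hearts at 5.59 to 8.94 RPKM, and the 3 KI TAC hearts lie between 12.4 and 18.6 RPKM for Pkd1.

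A limma model on log2(RPKM + 1) with all 4 groups gave the tests, with p-values adjusted over the 11240 genes (Benjamini-Hochberg) and a threshold of 0.05. On this scale the change of a gene with a low level is understated. Depth was 23650191 to 32455166 reads on genes in a library, and the 7 genes had from 126 reads (Trpv2) to 13363 reads (Pkd1) in a heart. The libraries were not alike in composition. The median of all genes differed by −0.10 on the log2 scale between KI TAC and KI sham hearts and by −0.12 between KI TAC and WT TAC hearts, and by 0.04 between WT TAC and WT sham hearts. Of the genes called in these comparisons, 36.8%, 26.4% and 60.2% were higher as deposited, and 51.5%, 51.6% and 51.1% after the medians of the libraries were set equal (median-ratio scaling). The GC-rich class of genes (the 1124 with the highest GC content) deviated by −0.43 and −0.28 (log2, median, from the mean of all mice) in KI TAC mice 6 and 5. In mouse 5 the 1124 most GC-poor genes (−0.135) and the 1124 longest genes (−0.183) were low as well. The GC-rich class deviated the other way in WT sham mouse 1 (0.228) and KI sham mouse 2 (0.23). Of the 7 channel genes only Piezo1 (59.0% GC over its longest transcript) belonged to this class. Pkd1 and Trpm4 (56.8% each) and Trpv2 (54.0%) were below its lower limit of 58.3% GC and above the median of 50.6%. By exon length 5 of the 7 (Pkd1, Trpm7, Trpm4, Pkd2 and Piezo1) were among the 1124 longest genes, of 9633 bases or more. Cardiomyocyte markers such as Myh6 and Tnnt2 were abundant in every heart, with a sum of 13400 to 24300 RPKM over 8 genes. Bcl2l1 was 12.2 ± 4.52, 10.4 ± 5.88, 13.9 ± 6.47 and 32.4 ± 6.89 RPKM (SD, n = 3 each) in the sham and TAC hearts of WT mice and then of KI mice, and since the allele changes 1 codon, the level does not check the labels. Bcl2l1 itself was called higher in KI TAC hearts, by 1.26 against KI sham (adjusted p = 0.0354) and by 1.64 against WT TAC hearts (adjusted p = 0.0231 from limma). Its interaction of genotype and surgery was 1.51 and did not pass (adjusted p = 0.248 from limma).

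The promoters of 2 channel genes are shown, those with the highest levels, with each GC box (GGGCGG on either strand, a motif bound by Sp1) in capitals. They are 300 bases each, around the start of the gene, from RefSeq on GRCm38.p6, 5′ to 3′ on the strand of the gene. The Pkd1 promoter is chr17:24549700-24549999 on the plus strand, and the Piezo1 promoter is chr8:122551280-122551579 on the minus strand.
Pkd1: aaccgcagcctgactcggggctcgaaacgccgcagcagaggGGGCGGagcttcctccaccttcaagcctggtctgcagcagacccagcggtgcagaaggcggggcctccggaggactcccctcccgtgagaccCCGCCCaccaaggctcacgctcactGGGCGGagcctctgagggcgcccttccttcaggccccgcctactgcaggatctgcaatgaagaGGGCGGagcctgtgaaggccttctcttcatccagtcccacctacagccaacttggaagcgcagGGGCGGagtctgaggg
Piezo1: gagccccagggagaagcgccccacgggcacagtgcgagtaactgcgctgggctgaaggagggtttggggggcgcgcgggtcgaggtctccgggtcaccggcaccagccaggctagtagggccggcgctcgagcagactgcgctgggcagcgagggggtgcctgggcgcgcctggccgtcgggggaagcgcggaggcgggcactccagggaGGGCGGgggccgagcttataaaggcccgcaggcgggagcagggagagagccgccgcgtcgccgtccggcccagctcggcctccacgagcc
The Pkd1 window held 5 GC boxes and 18 CpG dinucleotides, and the Piezo1 window held 1 GC box, 1 TATAAA (in 13.6% of all promoters) and 34 CpG. GGGCGG was found in 35.7% of the 32851 promoters of the same length, which had a median of 7 CpG. Promoters were matched for 6 of the 7 genes, Trpm4 being the other. Trpc1 had 3 GC boxes and Trpm7 had 35 CpG and 2 copies of CACGTG, a motif in 7.15% of all promoters. Neither TGANTCA (AP-1, in 7.81% of all promoters) nor more than 1 copy of CATTCC (MCAT, in 14.7%) was in any of the windows. These letters are a description of the windows, and binding was not measured.

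Piezo1 (ENSMUSG00000014444) lies on chromosome 8, 122481698 to 122551329 of GRCm38, on the minus strand. It has 9935 bases of exon, and its longest transcript has 59.0% GC. Its level was 11.7, 11.4 and 14.7 RPKM in the 3 WT sham hearts and 20.1, 19.3 and 15.8 RPKM in the WT TAC hearts. The lowest WT TAC heart was above the highest WT sham heart. The difference was 0.51 on the log2 scale (SE 0.23, 95% interval 0.01 to 1.01), with an unadjusted p of 0.046 and an adjusted p of 0.17 from limma. KI hearts had 15.4, 9.63 and 14.4 RPKM after sham and 15.5, 9.54 and 17.8 RPKM after TAC. These values overlapped, with 1 low heart in each KI group, and the difference was 0.10 (SE 0.23, 95% interval −0.40 to 0.60, adjusted p = 0.797 from limma). Over both genotypes the mean surgery difference was 0.30 (95% interval −0.05 to 0.66, adjusted p = 0.179 from limma). Corrected for GC content and exon length in each library, this mean was 0.43 (adjusted p = 0.0138 from limma), past the threshold, and without KI TAC mouse 6 it was 0.43 (adjusted p = 0.048). Both the pooled comparison of the genotypes and the correction were chosen with the data in view. Whether the response of Piezo1 differed between genotypes was tested as an interaction, which was −0.41 (95% interval −1.12 to 0.29, adjusted p = 0.555 from limma). With the correction for GC content and length the Piezo1 difference was 0.47 in WT (adjusted p = 0.0797) and 0.39 in KI hearts (adjusted p = 0.103), and the interaction was −0.08 (adjusted p = 0.887 from limma). Piezo1 shares its locus with Ctu2 on the opposite strand. The library kept the strand of the RNA, but the strand setting used in counting is not given in the sources used here.

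Pkd1 (ENSMUSG00000032855, chromosome 17, 24549834 to 24596508, plus strand, 17415 bases of exon, longest transcript at 56.8% GC) had the highest level of the 7 genes. WT hearts had 17.9, 23.2 and 24.3 RPKM after sham and 22.1, 22.6 and 25.2 RPKM after TAC, and these overlapped. KI hearts had 23.0, 16.9 and 23.6 RPKM after sham, against 13.7, 12.4 and 18.6 RPKM after TAC. Each KI TAC heart was below each WT TAC heart, while 1 KI TAC heart at 18.6 RPKM was above the lowest KI sham heart. Between the TAC groups the difference (KI minus WT) was −0.63 on the log2 scale (SE 0.20, 95% interval −1.05 to −0.20, unadjusted p = 0.00696, adjusted p = 0.0556 from limma). The KI difference between TAC and sham was −0.48 (SE 0.20, 95% interval −0.91 to −0.06, adjusted p = 0.0928), and the WT difference was 0.10 (SE 0.20, 95% interval −0.32 to 0.53, adjusted p = 0.776 from limma). The interaction was −0.58 (95% interval −1.19 to 0.02, adjusted p = 0.347 from limma). Without KI TAC mouse 7, the highest of its group, the difference between the TAC groups was −0.79 (adjusted p = 0.0218 from limma) and the KI surgery difference −0.64 (adjusted p = 0.0347), both past the threshold. With the correction for GC content and length the difference between the TAC groups was −0.32 (adjusted p = 0.21 from limma), and with median-ratio scaling it was −0.48 (adjusted p = 0.11). The KI surgery difference was −0.29 (adjusted p = 0.222) and −0.35 (adjusted p = 0.187) under these, and the interaction −0.30 and −0.43 (adjusted p = 0.535 and 0.451 from limma). In the same comparison, the median difference of the GC-rich class, to which Pkd1 does not belong, was −0.31 and that of the 1124 longest genes, to which it does, −0.25, and their part in the Pkd1 value was measured only by that correction. Pkd1 overlaps Tsc2, a gene on the opposite strand.

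Pkd2 (ENSMUSG00000034462, chromosome 5, 104459450 to 104505819) encodes the channel partner of polycystin-1 and was lower in level than Pkd1 in all 12 hearts. It was 5.30, 4.91 and 5.65 RPKM in WT sham and 5.89, 5.66 and 7.02 RPKM in WT TAC hearts. These groups nearly touched, and the difference was 0.19 (SE 0.16, 95% interval −0.16 to 0.54, adjusted p = 0.477 from limma). KI hearts overlapped, with 5.60, 4.55 and 5.67 RPKM after sham and 5.11, 5.47 and 7.45 RPKM after TAC. With median-ratio scaling the WT groups overlapped and the KI groups did not. Between the TAC groups Pkd2 differed by −0.05 (95% interval −0.40 to 0.31, adjusted p = 0.872 from limma), with the opposite sign after median-ratio scaling (0.09). The interval for Pkd1 in that comparison, −1.05 to −0.20, overlaps that of Pkd2, and the difference between the 2 genes was not tested.

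Trpc1 (ENSMUSG00000032839, chromosome 9, 95705082 to 95750375) was 1.59, 1.45 and 1.23 RPKM in WT sham hearts and 1.81, 2.13 and 1.69 RPKM in WT TAC hearts. The groups did not overlap, with a difference of 0.25 (SE 0.15, 95% interval −0.08 to 0.57, adjusted p = 0.305 from limma). KI TAC hearts spread from 1.18 to 2.04 RPKM, across the KI sham range of 1.21 to 1.75 RPKM. Trpv2 (ENSMUSG00000018507, chromosome 11, 62574486 to 62600515) had the fewest reads, 126 to 245 in a heart. It was 1.45, 1.19 and 1.29 RPKM in WT sham and 1.93, 1.43 and 2.03 RPKM in WT TAC hearts, so 1 TAC heart lay within the sham range. The difference was 0.27 in WT (SE 0.13, adjusted p = 0.195) and 0.12 in KI hearts (SE 0.13, adjusted p = 0.549, both from limma). Sham KI hearts had 1.31, 1.48 and 1.26 RPKM and KI TAC hearts 1.63, 1.30 and 1.73 RPKM. Averaged over genotypes, Trpv2 differed by 0.20 (95% interval −0.01 to 0.40, adjusted p = 0.128 from limma), by 0.23 with median-ratio scaling (adjusted p = 0.0454) and by 0.26 with the correction for GC content and length (adjusted p = 0.0319), the last 2 past the threshold.

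Trpm7 (ENSMUSG00000027365, chromosome 2, 126791565 to 126876230, 40.1% GC) was the most GC-poor of the 7 genes. WT sham hearts had 2.15, 3.85 and 4.23 RPKM and WT TAC hearts 3.38, 3.8 and 6.58 RPKM. The lowest value was in WT sham mouse 1 and the highest in WT TAC mouse 10, and in the same 2 libraries the 1124 most GC-poor genes lay lowest and highest, at −0.24 and 0.30 on the log2 scale (median deviation). The WT difference of Trpm7 was 0.33 (SE 0.24, 95% interval −0.18 to 0.85, adjusted p = 0.39 from limma) as deposited. It was 0.11 without WT sham mouse 1, 0.09 without WT TAC mouse 10, and 0.11 with the correction for GC content and length. KI sham hearts had 2.95 to 4.22 RPKM and KI TAC hearts 2.72 to 4.33 RPKM.

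Trpm4 (ENSMUSG00000038260, chromosome 7, 45302632 to 45333780, minus strand, 10826 bases of exon, longest transcript at 56.8% GC) was the channel gene that passed the test. It overlaps 1 annotated pseudogene of Rpl14 on the opposite strand. KI sham hearts had 6.98, 6.30 and 6.46 RPKM, and KI TAC hearts had 2.46, 2.93 and 4.59 RPKM. All 3 KI TAC hearts were below all 3 KI sham hearts. The difference was −0.84 on the log2 scale, 0.559 times the sham level on that scale (SE 0.20, 95% interval −1.28 to −0.40, adjusted p = 0.00984 from limma). WT sham hearts had 8.94, 5.59 and 5.78 RPKM, and WT TAC hearts had 4.36, 3.48 and 4.47 RPKM. Again the groups did not overlap, and the WT sham values were spread by 1 heart at 8.94 RPKM. The WT difference was −0.59 (SE 0.20, 95% interval −1.02 to −0.15, unadjusted p = 0.0122, adjusted p = 0.0773 from limma). It passed the threshold with median-ratio scaling (−0.61, adjusted p = 0.0277) and with quantile normalization (−0.64, adjusted p = 0.0217). An exact permutation test of 3 against 3 mice gave a two-sided p of 0.1 in each genotype, the smallest it can give.

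Whether the Trpm4 difference depended on genotype was also tested. The interaction was −0.25 (95% interval −0.87 to 0.37, adjusted p = 0.688 from limma), and KI TAC and WT TAC hearts differed by −0.26 (95% interval −0.70 to 0.17, adjusted p = 0.404). Over the alternatives these 2 values ran from −0.45 to 0.01 and from −0.46 to 0.03, none past the threshold. The mean of both genotypes, a comparison chosen with the data in view, was −0.71 (SE 0.14, 95% interval −1.02 to −0.40, adjusted p = 0.00229 from limma). In that comparison 31.1% of all genes passed. The 6 TAC hearts lay below the 6 sham hearts, and the share of all genes with such a separation was not counted. The mean of both genotypes was past the threshold in all 18 alternatives, with differences of −0.87 to −0.62. The KI difference alone was past it in 12 of 13, the exception being the correction for GC content and length (−0.61, adjusted p = 0.0594). With that correction the WT difference was −0.62, and the difference between the TAC groups was 0.03.

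**Figure D2:**
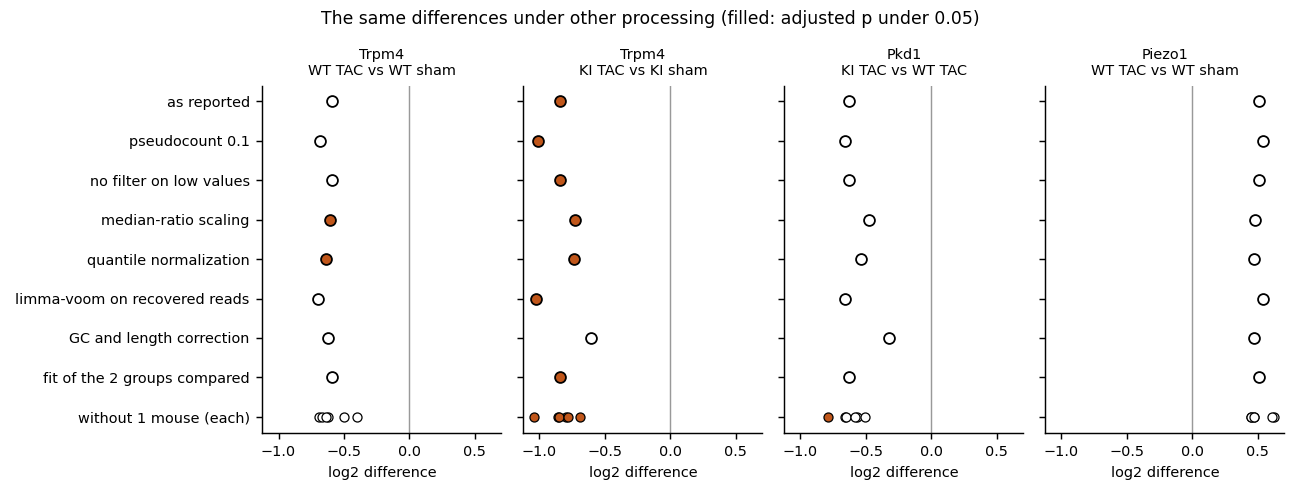
Differences in log2(RPKM + 1) of Trpm4, Pkd1 and Piezo1 (horizontal axis) as reported and under each other way of processing (vertical axis), with 1 point per setting, 1 per mouse left out, and filled points at an adjusted p under 0.05. Trpm4 stayed lower after TAC in both genotypes, from −0.70 to −0.40 in WT and from −1.04 to −0.61 in KI hearts, and Pkd1 in KI TAC against WT TAC ranged from −0.79 to −0.32.

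A ratio of genes within a heart does not change when a library is rescaled. The log2 ratio of Trpm4 to the geometric mean of the other 6 channel genes was chosen after the values had been seen. It was 1.09, 0.31 and 0.24 in WT sham hearts and −0.36, −0.67 and −0.50 in WT TAC hearts. In KI hearts it was 0.45, 0.67 and 0.36 after sham and −0.91, −0.50 and −0.16 after TAC. All sham hearts were above 0 and all TAC hearts below. The mean changed by −1.06 in WT and −1.02 in KI hearts, and the TAC groups differed by −0.01. Since the ratio was built on the Trpm4 values, these are a description with no test.

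**Figure D3:**
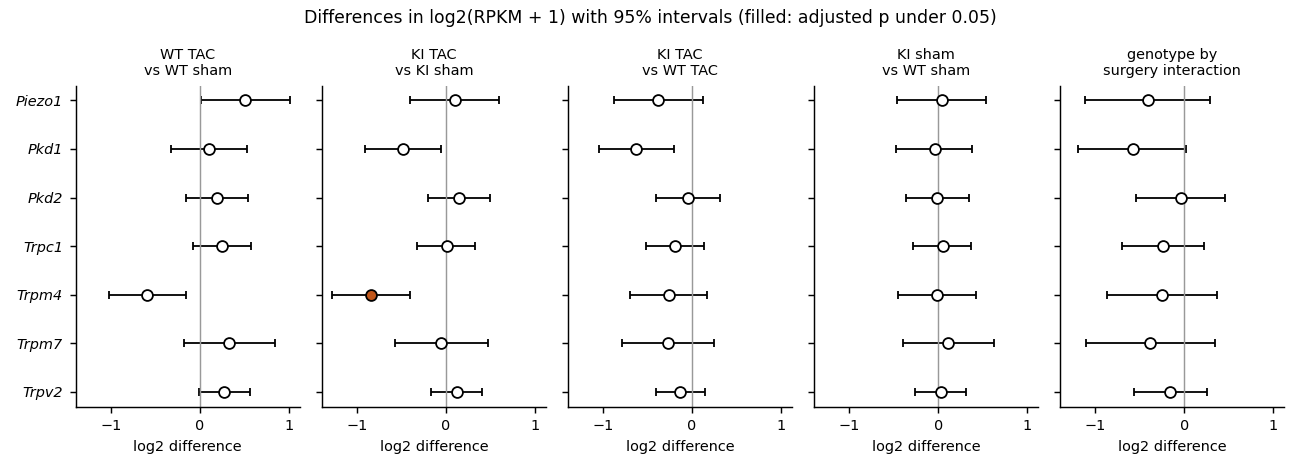
Difference in log2(RPKM + 1) of each channel gene with its 95% interval from limma (horizontal axis) in 5 comparisons, with filled points at an adjusted p under 0.05. The filled point is Trpm4 in KI TAC against KI sham at −0.84, and the 7 points of KI sham against WT sham lie between −0.04 and 0.11.

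Counted together, 0 of the 7 genes passed the test in WT hearts, where 11.6% of all genes tested did, and 2 of them (Trpm4 and Piezo1) had an unadjusted p under 0.05, as had 3135 of the 11240 genes. In KI hearts 1 of 7 passed, beside 23.3% of all genes, and 14.7% of all genes were called lower, as Trpm4 was. Without KI sham mouse 3, 1453 of all genes were called instead of 2620. An unadjusted p under 0.05 was found for 2 of the 7 (Trpm4 and Pkd1) and for 4140 genes in all. For the mean of both genotypes 1 of 7 passed, beside 31.1% of all genes, of which 17% in the lower direction. These shares of called genes are no more than those of genes at large. Between the TAC groups 0 of 7 passed, beside 11% of all genes, and 1 (Pkd1) had an unadjusted p under 0.05, as had 3408 of all genes. These shares of all genes depended on single mice, with 162 genes called between the TAC groups without WT TAC mouse 7 and 186 without KI TAC mouse 6 instead of 1242, and 596 in WT hearts without WT TAC mouse 7 instead of 1299. No channel gene passed between the sham groups or in the interaction, where 0.0178% (2 genes, with 37 at an unadjusted p under 0.05) and 0% of all genes did (1668 at an unadjusted p under 0.05), and none of the 7 had an unadjusted p under 0.05 in either. limma-voom on reads recovered from the values called the same number of the 7 in each comparison. The groups did not overlap for 4 of 7 genes in WT TAC against WT sham (35.1% of all genes), 1 of 7 in KI TAC against KI sham (38.3%), 1 of 7 in KI TAC against WT TAC (29.5%) and 0 of 7 between the sham groups (3.27%). With median-ratio scaling there were 3 in WT, where Piezo1 and Pkd2 overlapped and Trpv2 did not, and 2 in KI hearts, Pkd2 joining Trpm4. The share of all genes without overlap is not given for this scaling, so these counts cannot be set against it.

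The signs of the fitted values differed between comparisons. After TAC, 6 of 7 genes had a higher fitted value in WT hearts (median 0.25, beside 0.04 over all genes, of which 53.5% were higher) and 4 of 7 in KI hearts (median 0.01, beside −0.10, with 41% higher). Between the TAC groups all 7 were lower in KI hearts, with a median of −0.26 beside −0.12 over all genes, of which 37.4% were higher. After median-ratio scaling 6 of 7 were lower, with a median of −0.14 beside −0.001 over all genes (49.9% higher). With the correction for GC content and length 5 of 7 were lower, and their median of −0.06 lay above that of all genes, −0.115 (36.6% higher). Over the 1124 longest genes, which include 5 of the 7, the uncorrected median between the TAC groups was −0.25. The comparisons share groups of mice, so these counts are not independent of each other. Sham hearts of the genotypes were close, with differences from −0.04 (Pkd1) to 0.11 (Trpm7), and their 95% intervals reached from −0.47 to 0.63.

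By level, the order of the means over all 12 hearts was Pkd1 (20.3 RPKM), Piezo1 (14.6), Pkd2 (5.69), Trpm4 (5.19), Trpm7 (3.81), Trpc1 (1.59) and Trpv2 (1.5 RPKM). Levels of different genes depend on the exon length used, here the union of all annotated exons. Pkd1 was above Piezo1 in 11 of 12 hearts, and Piezo1 above Pkd2 and Trpm7 above Trpc1 in all 12. Trpc1 and Trpv2 could not be ordered, Trpc1 being higher in 7 of 12 hearts. The position of Trpm4 depended on surgery. It was above Pkd2 in all 6 sham hearts and below it in all 6 TAC hearts, and it was above Trpm7 in all 6 sham hearts but in 2 of the 6 TAC hearts.

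The genes whose pattern over the 12 hearts was nearest to each channel gene were found by the mean absolute difference of standardized values, whose median over all genes was 0.957 to 1.14 depending on the channel gene. For Trpm4 they were Prkab1 (0.211), which encodes a subunit of AMP-activated protein kinase, and Slc25a42 (0.214), a mitochondrial carrier of coenzyme A. Slc25a42 was 21.2 and 23.1 RPKM in WT and KI sham hearts and 10.8 and 8.55 RPKM in WT and KI TAC hearts (means, n = 3). For Pkd1 they were Arhgap21 (0.194), a GTPase-activating protein, and Pcnx (0.235), and both had their lowest mean in KI TAC hearts, at 14.6 and 13.2 RPKM. For Piezo1 they were Myo9b (0.237), an unconventional myosin, and the homeobox gene Pknox1 (0.299). The nearest genes were Arl14ep and Pphln1 for Pkd2, Znrf3 and Lgr4 for Trpc1, Pcm1 and Usp9x for Trpm7, and Akr1b8 and Coro1c for Trpv2, at 0.241 to 0.303. Among the 21 pairs of channel genes this difference ran from 0.671 (Piezo1 and Pkd2) to 1.44 (Trpm4 and Trpv2), which is not comparable with the values above, since each nearest gene is the best of all genes tested.

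Other TRP channel genes were measured for comparison. Of 26 listed, 6 were analysed here and 4 were tested, and in WT hearts 1 of 4 was called lower (4.6% of all genes), Pkd2l2, a relative of polycystin-2, at 2.81 ± 0.341 RPKM in sham against 1.06 ± 0.468 RPKM in TAC hearts (SD, n = 3, difference −0.91, adjusted p = 0.00921 from limma). In KI hearts 2 of 4 were called lower (14.7% of all genes) and 1 higher (8.57%). Pkdrej, a polycystin-1 relative, was lower by −0.99 (adjusted p = 0.00198) and Mcoln1, a lysosomal channel, by −0.55 (adjusted p = 0.0308, lost in 5 of 13 alternatives). Trpv4, a channel opened by swelling and warmth, was the one that was higher, at 3.55 ± 1.01 RPKM in sham against 7.51 ± 2.37 RPKM in TAC hearts (difference 0.89, adjusted p = 0.0155 from limma, lost on leaving out KI sham mouse 1 or KI TAC mouse 7). The median difference of the 4 was −0.39 (WT) and −0.48 (KI). None of the 4 passed between the TAC groups, where Trpv4 was called higher with the correction for GC content and length and Pkdrej lower with limma-voom, and the interaction of Trpv4 (0.74, adjusted p = 0.324) did not pass the threshold in limma.

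Of 15 genes listed as other mechanosensitive channels, 9 were analysed here and 5 were tested. The Tmc genes were listed as a family, and whether their products respond to stretch was not tested. Piezo2, the relative of Piezo1, was at 0.0397 to 0.174 RPKM in the group means and was below the minimum for a test. Tmc7, of the transmembrane channel-like family, was called lower in WT (−0.69, adjusted p = 0.038 from limma, lost in 7 of 13 alternatives) and in KI hearts (−0.74, adjusted p = 0.0169, lost without KI sham mouse 1 or 3). In KI hearts Tmc8 (−0.78, adjusted p = 0.0129, lost without KI TAC mouse 6) and Tmem63b, a stretch- and osmosensitive channel at 42.4 ± 7.21 RPKM in sham against 26.6 ± 2.13 RPKM in TAC hearts (−0.64, adjusted p = 0.0236 from limma), were called too. Tmem63b lost its call in 6 of 13 alternatives, the correction for GC content and length among them. In all, 1 of 5 listed genes was called lower in WT (4.6% of all genes) and 3 of 5 in KI hearts (14.7%), Tmc7 and Tmc8 among the 3. None of the 5 passed between the TAC groups, and the median of the list was −0.14 (WT) and −0.64 (KI).

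All 11 channel partners and genes of store-operated calcium entry were analysed, and 10 were tested. None passed in WT hearts, where the median was 0.19, while 2 of 10 were called lower in KI hearts (14.7% of all genes) and 1 between the TAC groups (8.13%). Orai1 and Orai3, which encode pore subunits of store-operated calcium channels, were called lower in KI hearts, by −0.76 (adjusted p = 0.0418) and −0.60 (adjusted p = 0.0245 from limma), calls kept in 7 and 8 of 13 alternatives, and the call of Orai1 was lost with median-ratio scaling. The WT difference of Orai3 was nearly as large, −0.56 (adjusted p = 0.0517), and passed the threshold with median-ratio scaling, with quantile normalization and with the correction for GC content and length. Its interaction was −0.04 (adjusted p = 0.953) and its mean over both genotypes −0.58 (adjusted p = 0.00309 from limma). Between the TAC groups Orai1 was 13.7 ± 4.36 RPKM in KI against 29.7 ± 6.52 RPKM in WT hearts (SD, n = 3), a difference of −1.09 (adjusted p = 0.019 from limma) that was past the threshold in 10 of 13 alternatives. Mdfic, a partner of Piezo channels, was highest in WT TAC hearts, at a mean of 4.60 RPKM, and passed no test.

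Among 17 genes of polycystin maturation and ciliary traffic, 16 were analysed and 14 tested. Alg9, a mannosyltransferase of N-glycan assembly in the endoplasmic reticulum, was 2.09 ± 0.307 RPKM in KI TAC against 4.85 ± 0.826 RPKM in WT TAC hearts (SD, n = 3, difference −0.92, adjusted p = 0.00582 from limma), past the threshold in all 13 alternatives. Inpp5e, a phosphatase of the cilium, was lower after TAC in KI hearts (14.9 ± 1.54 to 5.84 ± 1.89 RPKM, difference −1.25, adjusted p = 0.00102 from limma) in all 13 alternatives, and the KI TAC level was below the WT TAC level (−0.85, adjusted p = 0.0232) in 8 of 13. Bbs2, of the BBSome that moves proteins through cilia, was lower after TAC in WT hearts (−0.65, adjusted p = 0.00869, lost without WT TAC mouse 7) and in KI hearts (−0.59, adjusted p = 0.00714 from limma). Bbs1 was lower in KI hearts (−0.57, adjusted p = 0.0128, lost on leaving out KI TAC mouse 5 or KI sham mouse 3). Bbs1 (−0.50, adjusted p = 0.0418) and Tulp3 (−0.50, adjusted p = 0.0454 from limma) were called lower between the TAC groups (KI minus WT) but lost those calls in 7 and 9 of 13 alternatives. In all, 1 of 14 was called lower in WT hearts (4.6% of all genes), 3 in KI hearts (14.7%) and 4 between the TAC groups (8.13%), Bbs1 and Tulp3 among the 4.

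Magnesium transport was listed because of Trpm7. Of 12 genes, 11 were analysed and 9 tested, and none passed in WT hearts. The cyclin M family transporters Cnnm3 and Cnnm2 were lower after TAC in KI hearts, from 14.1 ± 0.601 to 5.04 ± 1.44 RPKM and from 4.99 ± 1.11 to 1.98 ± 0.295 RPKM (SD, n = 3 each). These differences were −1.34 (adjusted p = 0.000435) and −1.0 (adjusted p = 0.0013 from limma). Both also lay below the WT TAC level, by −1.11 (adjusted p = 0.00652) and −1.05 (adjusted p = 0.00549 from limma), and all 4 calls were kept in all 13 alternatives. Nipa1 was called lower in KI hearts (−0.59, adjusted p = 0.0333) and Magt1 in KI TAC against WT TAC hearts (−0.70, adjusted p = 0.0402 from limma). These calls were kept in 8 and 5 of 13 alternatives, and that of Magt1 was lost with median-ratio scaling and with quantile normalization. Trpm7 itself differed by −0.05 in KI hearts and by −0.27 between the TAC groups (adjusted p = 0.903 and 0.472 from limma). Without WT TAC mouse 10 the difference of Trpm7 between the TAC groups was −0.03. In all, 3 of 9 were called lower in KI hearts (14.7% of all genes) and 3 of 9 between the TAC groups (8.13%). No gene of the 5 lists passed between the sham groups or in the interaction.

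**Figure D4:**
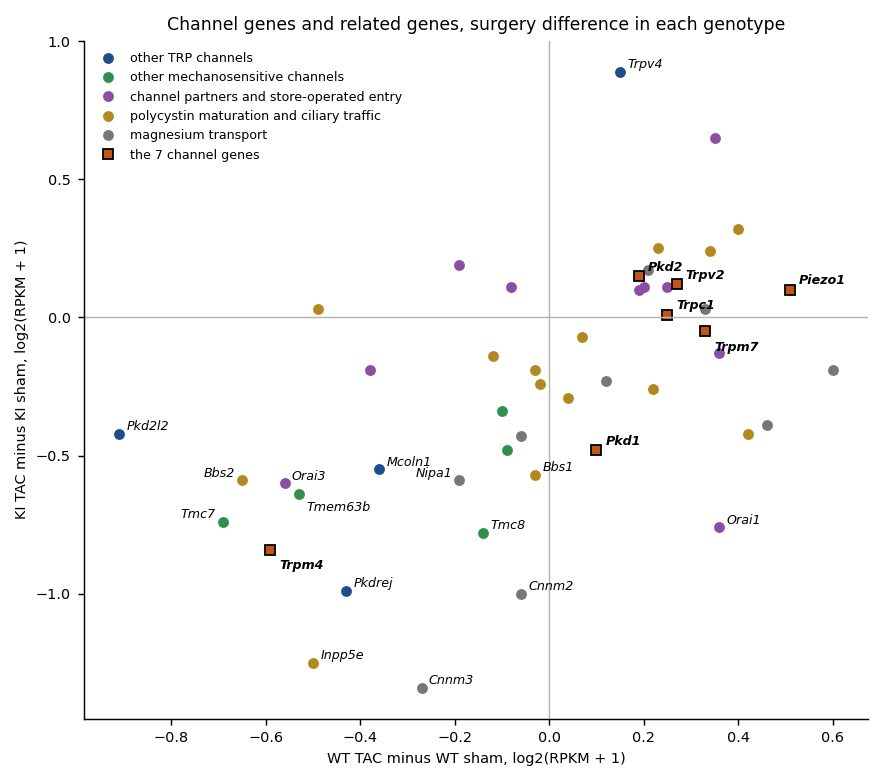
Difference in log2(RPKM + 1) between TAC and sham in WT hearts (horizontal axis) and in KI hearts (vertical axis) for the 7 channel genes (squares) and the tested genes of the 5 lists (circles), with names for the channel genes and for listed genes at an adjusted p under 0.05 in either genotype. Trpm4 lies at −0.59 and −0.84, Cnnm3 at −0.27 and −1.34, and Trpv4 at 0.15 and 0.89.

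The samples are whole tissue, so fewer cells of a type and less RNA per cell cannot be told apart. The summed cardiomyocyte markers overlapped between all groups, with 16400 to 21300 RPKM in WT sham, 13400 to 24300 in WT TAC, 17600 to 20800 in KI sham and 16400 to 22800 RPKM in KI TAC hearts. Actc1 made up most of that sum, with group means of 9720 to 13800 RPKM. The median difference over the 8 genes between TAC and sham was −0.59 in WT, the same value as for Trpm4, and −0.01 in KI hearts. Myh6 was called lower in WT hearts (−1.15, adjusted p = 0.0129) and Pln in KI hearts (−0.93, adjusted p = 0.0281 from limma), and Pln, Mybpc3 and Myh6 were called lower in the mean of both genotypes, as Trpm4 was. Tnni3 and Myl2 were called higher in KI hearts of the TAC groups. Summed macrophage and monocyte markers (8 of 8 genes) were 87.3 to 141 RPKM in WT sham, 170 to 246 in WT TAC, 94.6 to 119 in KI sham and 119 to 145 RPKM in KI TAC hearts. In WT they were separated in the same direction as Piezo1, Pkd2 and Trpc1, and 5 of the 8 were called higher. Between the TAC groups they were separated in the same direction as Pkd1, and 3 of the 8 were called lower in KI hearts. Fibroblast markers (7 genes) summed to 122 to 197, 147 to 760, 148 to 256 and 101 to 183 RPKM in the 4 groups in that order, endothelial markers (7 genes) to 280 to 387, 264 to 337, 291 to 358 and 271 to 309 RPKM, and smooth muscle and pericyte markers (6 genes) to 155 to 169, 207 to 281, 132 to 215 and 160 to 227 RPKM. Smooth muscle markers were thus also separated in WT hearts. Neutrophil markers (3 of 6 genes analysed) summed to 0.508 to 1.27 and 3.69 to 9.87 RPKM in WT and to 0.395 to 0.505 and 4.18 to 20.3 RPKM in KI hearts, sham and then TAC. They were separated in both genotypes, as Trpm4 was in the other direction. Of the 3 genes, 2 were called higher in WT (as were 782 of the 11240 genes) and 3 in KI hearts (8.57% of all genes). Besides these and Pln, the markers called in KI hearts were Cd14, higher (1.28, adjusted p = 0.00259), and Csf1r and Lum, lower. The differences of Csf1r and Lum were −0.53 (adjusted p = 0.0419) and −1.14 (adjusted p = 0.0476 from limma). No analysed marker had a value of 0 throughout a group, and the lists of lymphocyte (6) and atrial (4) markers were not analysed here. The part of these cells in the channel gene values was not tested.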

How the data were processed

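RNA of 12 hearts was poly(A)-selected and sequenced by the authors as strand-specific libraries with single reads. Per the labels and the methods, the authors trimmed reads with Trimmomatic 0.39, mapped them to GRCm38 with HISAT2 2.2.1 and counted them with HTSeq 0.6.1. The deposited values are taken as RPKM, because multiplied by the exon length of GENCODE M21 they sum to between 997702 and 1002226 in each mouse. The step that made them and the filter that left 13552 genes are not given in the sources used here. The main design had assumed counts, so limma took the place of a count test.

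From the deposited RPKM, log2(RPKM + 1) was tested with limma 3.58.1 in R 4.3.3 (lmFit and eBayes with trend, 4 groups, all 12 mice) over the 11240 genes that reached 1 RPKM in 3 or more mice. P-values were Benjamini-Hochberg adjusted. Mice were grouped by genotype and treatment in the labels, and mice are the replicates. The model was tested on simulated data. Low values were whole multiples of 1 read (94.93% to 96.81% of them within 0.02 reads), which gave depth and recovered reads for limma-voom. Counting error weighs most on Trpv2 and Trpc1, which had the fewest reads. Alternatives were a pseudocount of 0.1, no filter, median-ratio scaling, quantile normalization, limma-voom, a fit of the 2 groups compared, each mouse left out, and a replicate block. The mean of both genotypes, the correction for GC content and length (natural splines, 3 degrees of freedom each) and the Trpm4 ratio were added after seeing the data. The text names the 7 genes, Bcl2l1, of each of 5 lists (other TRP channels, other mechanosensitive channels, channel partners and store-operated entry, polycystin maturation and ciliary traffic, magnesium transport) at most 5 called genes per comparison, and the 2 genes nearest each channel gene, passing over predicted genes. From the list of other TRP channels 1 gene was left out and is not reported here. Piezo2, Mdfic and marker genes were named outside this rule, after their values had been seen. The channel genes and the lists were chosen with earlier results of these data known. Python 3.11.15, pandas 2.3.3 and matplotlib 3.10.9 handled tables and plots.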

Additional observations from a re-analysis of the deposited data

How the results depend on the processing

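The changes of Trpm4 after TAC kept their direction in all alternatives. The number of the 7 channel genes called in WT TAC against WT sham was 1 with quantile normalization and 1 with median-ratio scaling instead of 0. In both cases the gene was Trpm4, while 1560 and 1469 of all 11240 genes were called instead of 1299. In KI TAC against KI sham the number was 0 instead of 1 with the correction for GC content and length (2983 of all genes). With a mouse left out it was 1 to 2 there (2 without KI TAC mouse 7, which added Pkd1, with 2741 of all genes). In KI TAC against WT TAC it was 0 to 1 with a mouse left out (1 without KI TAC mouse 7, Pkd1, with 1822 of all genes). For the mean of both genotypes the number was 2 with median-ratio scaling (Trpm4 and Trpv2) and 3 with the correction for GC content and length (also Piezo1). It was 1 to 2 with a mouse left out (2 without KI TAC mouse 6). Of all 11240 genes, 3500 were called in that comparison as reported and 3796 with median-ratio scaling. Groups that did not overlap numbered 2 instead of 1 in KI TAC against KI sham with median-ratio scaling, for which the share of all genes is not given. The cause of these moves was not tested, except that the correction acts on GC content and length by construction.

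Differences near 0 changed sign. With the correction for GC content and length, the values were −0.01 for Trpc1 in KI TAC against KI sham, 0.085 for Pkd2 and 0.03 for Trpm4 in KI TAC against WT TAC, 0.019 for Pkd2 and 0.017 for Trpm4 between the sham groups, 0.066 for Pkd2 and 0.012 for Trpm4 in the interaction, and −0.001 for Trpm7 in the mean of both genotypes. With quantile normalization they were 0.041 for Trpm7 in KI TAC against KI sham, 0.065 for Pkd2 and 0.028 for Trpv2 in KI TAC against WT TAC, −0.002 for Trpv2 between the sham groups, and 0.081 for Pkd2 and 0.03 for Trpv2 in the interaction. With median-ratio scaling they were 0.055 for Trpm7 in KI TAC against KI sham, 0.088 for Pkd2 in KI TAC against WT TAC and 0.10 for Pkd2 in the interaction. With a mouse left out, ranges that crossed 0 were −0.03 to 0.18 for Pkd1 in WT TAC against WT sham, −0.097 to 0.34 for Piezo1, −0.13 to 0.11 for Trpc1 and −0.17 to 0.088 for Trpm7 in KI TAC against KI sham, −0.19 to 0.045 for Pkd2 in KI TAC against WT TAC, and −0.18 to 0.052 for Pkd2 in the interaction. Between the sham groups they were −0.083 to 0.23 for Piezo1, −0.17 to 0.10 for Pkd1, −0.05 to 0.08 for Pkd2, −0.021 to 0.14 for Trpc1, −0.12 to 0.18 for Trpm4, −0.11 to 0.25 for Trpm7 and −0.013 to 0.07 for Trpv2. None of these sign changes was past the threshold.

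Over all genes, KI TAC against WT TAC gave 216 calls in a fit of the 2 groups compared and 162 to 1822 with a mouse left out (162 without WT TAC mouse 7), beside 1242, WT TAC against WT sham gave 596 to 1525, beside 1299, and KI TAC against KI sham gave 1453 (without KI sham mouse 3) to 2741, beside 2620. Among listed genes with no call as reported, other scaling, limma-voom or the correction added calls in WT TAC against WT sham for Pkdrej, Tmem63b, Orai3, Stim1 and Alg9, in KI TAC against KI sham for Pkd2l2, Mdfi, Sec63, Alg9 and Magt1, and in KI TAC against WT TAC for Pkdrej and Trpv4. The interaction gave 0 calls, and 240, 182 and 8 without WT TAC mouse 9, KI TAC mouse 7 and WT TAC mouse 10, none of them a channel gene. A replicate block of mouse numbers in the sham groups called 0 channel genes and 0 of all genes, beside 2 of all genes without it. Deviations of same-numbered mice correlated at −0.225, −0.302 and 0.44 across genes, and those of differently numbered mice at −0.35 to 0.434. Deviations from a mean of 3 mice constrain each other, so these values cannot show whether the numbers pair the mice. Trpc1 and Trpv2, at 126 to 507 reads in a heart, are limited most by depth, and 3 mice a group limit all values.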
